A study of Rattus norvegicus with 15 samples.

Results

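Gene expression in the nucleus accumbens was compared between rats tested for cocaine seeking after 1 day of withdrawal (group 1C) and rats that had taken saline (group Sal). The comparison used the 3 arrays titled 1C and the 3 titled Sal, 6 of the 15 arrays in the series. It covered every gene whose probe set carries 1 gene symbol: 14497 genes, of which 11778 were bright enough to be tested. All animals were male Sprague-Dawley rats of 250 to 350 g with a catheter in the jugular vein, and the protocol also mentions a cannula implantation without naming its site. The 1C rats self-administered cocaine (0.75 mg/kg per infusion, paired with a light) for 6 h a day over 10 days. They then had 1 day of withdrawal and an extinction test, in which lever pressing for the drug cues is measured. The Sal rats self-administered saline on the same schedule, and the labels give them no withdrawal time and no test. Cocaine, withdrawal and the test therefore differ together between 1C and Sal and cannot be told apart here. Group 1W (3 arrays) had cocaine and 1 day of withdrawal without the test, and group 30C (3 arrays) had cocaine, 30 days of withdrawal and the test. Group 30W (3 arrays), with 30 days of withdrawal and no test, entered only the shared estimate of the spread. Whether each sample came from a single rat or from a pool is not stated in the labels, so p-values measure the spread between these samples, which may be technical.

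The nucleus accumbens is the ventral part of the striatum and takes part in reward and drug seeking. Most of its neurons are GABAergic medium spiny neurons, which carry dopamine D1 or D2 receptors and make the neuropeptides dynorphin, substance P or enkephalin, and cocaine raises dopamine around them by blocking its reuptake. Bursts of neuronal activity switch on immediate early genes such as Fos and Arc for a short time, and stress hormones act through the glucocorticoid receptor on a further set of genes. A piece of tissue also holds glia, vessels, blood and the edges of neighbouring regions, and in bulk samples fewer cells of a type and less RNA per cell cannot be told apart.

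The values are log2 intensities made with RMA, on which a difference of 1 unit is a 2-fold difference. Median values of the 6 arrays lay between 6.90 and 6.92, and the correlation between any pair of them was 0.988 to 0.997. Markers of medium spiny neurons were bright on all 6: Penk, the enkephalin precursor, read 12.59 to 12.82, and Ppp1r1b, which encodes DARPP-32, read 12.10 to 12.34. Libraries stood apart in ways their labels do not give. Slc17a7, which loads glutamate into the vesicles of cortical neurons, read 7.16 on Sal replicate 1 against 11.52 and 12.02 on the other Sal arrays and 10.02, 11.56 and 10.96 in 1C. In all, 6 genes lay at least 1 log2 unit below the other 5 arrays on Sal replicate 1. They included Neurod6, a transcription factor of cortical neurons (5.94 against 8.07 to 9.75), and Cck, the cholecystokinin precursor (8.45 against 9.95 to 11.68). On 1C replicate 2, 12 inflammation-associated and other genes lay at least 1 unit above the other 5 arrays, and their values are given with the cytokine genes.

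No gene passed an adjusted p of 0.05 between 1C and Sal (0 of 11778, 0%; limma with Benjamini-Hochberg adjustment). At an unadjusted p under 0.05 there were 404 genes, fewer than the 589 that chance alone gives over this number of genes, with 247 higher in 1C (2.1%) and 157 lower (1.33%). The 3 arrays of 1C lay wholly above those of Sal for 468 genes (3.97%) and wholly below for 378 (3.21%). Together these were 7.18% of genes, fewer than the 10% that chance alone gives with 3 arrays against 3. The median standard error was 0.07, 54.5% of genes had a difference above 0, and the median over all genes was 0.01. Most differences were small: only 22 genes had one of 0.5 log2 units or more, 19 of them higher in 1C. Of the 22, 8 had no overlap between the groups. A single value compared between 3 arrays and 3 by an exact test cannot give a p below 0.1.

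Galectin-3, the product of Lgals3, a sugar-binding protein made by activated microglia and macrophages, had the smallest p-value of any gene. It read 6.41, 6.45 and 6.50 in 1C and 5.98, 6.04 and 6.03 in Sal. The groups did not overlap, and the gap between them was wider than the range within either. The difference was 0.44 (SE 0.07), a 1.35-fold higher level, with an adjusted p of 0.446 (limma, Benjamini-Hochberg). The mean in 1W was 6.04, next to that of Sal at 6.02, and in 30C it was 6.11. Lgals3 was 0.42 higher in 1C than in 1W (adjusted p = 0.717) and 0.34 higher than in 30C (adjusted p = 0.607; both limma).

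The 12 genes with the smallest p-values among those wholly higher in 1C held immune, vascular and blood genes, and none passed the adjusted threshold. The immune ones were P2ry6, a nucleotide receptor of microglia, RT1-DMa, a chain of the class II antigen-loading complex, and Il1r1, the interleukin-1 receptor. P2ry6 read 6.96, 7.01 and 6.92 in 1C and 6.75, 6.73 and 6.67 in Sal, a difference of 0.25 (SE 0.06). RT1-DMa was higher by 0.23 (SE 0.05), and its highest array was 1C replicate 2 (11.05). Il1r1 read 7.07, 7.06 and 6.92 in 1C and 6.60, 6.64 and 6.69 in Sal, a difference of 0.37 (SE 0.10). In 30C its mean was 6.60, no higher than that of Sal at 6.64.

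Vessel and acute-phase genes stood beside them. Esam, an adhesion molecule of endothelial tight junctions, read 8.70, 8.97 and 8.81 in 1C and 8.52, 8.56 and 8.39 in Sal, a difference of 0.34 (SE 0.08), and it was 0.28 higher in 1W than in Sal. Lrg1, a secreted glycoprotein that acts on endothelial cells, read 7.31, 8.08 and 7.44 in 1C and 6.18, 6.95 and 6.79 in Sal. Its difference of 0.97 (SE 0.26), or 1.96-fold, was the largest of the 12. The Sal arrays themselves spanned 0.77 units, and 1W was 0.71 above Sal. Without 1C replicate 2 the difference was 0.73. Pla2g2a, a secreted phospholipase, was higher by 0.39 (SE 0.09) in 1C and by 0.35 in 1W. Both comparisons use the same 3 Sal arrays, so these values stand side by side and are not independent of each other.

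The rest of the 12 were Pim1, a kinase induced by cytokines (0.32, SE 0.09), Msn, which links actin to the cell membrane (0.25, SE 0.07), Cpxm2, a carboxypeptidase-like protein (0.30, SE 0.07), Trim72, a membrane-repair protein of muscle (0.16, SE 0.04), and Alas2 (0.45, SE 0.12), which is described with the blood genes. Trim72 read 6.04, 6.03 and 6.04 in 1C and 5.88, 5.86 and 5.89 in Sal, the smallest difference of the 12. Of the 12, Lgals3 had the lowest unadjusted p between 1C and 1W and Esam, Pla2g2a, Trim72 and Alas2 differed by under 0.1 there.

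**Figure D1:**
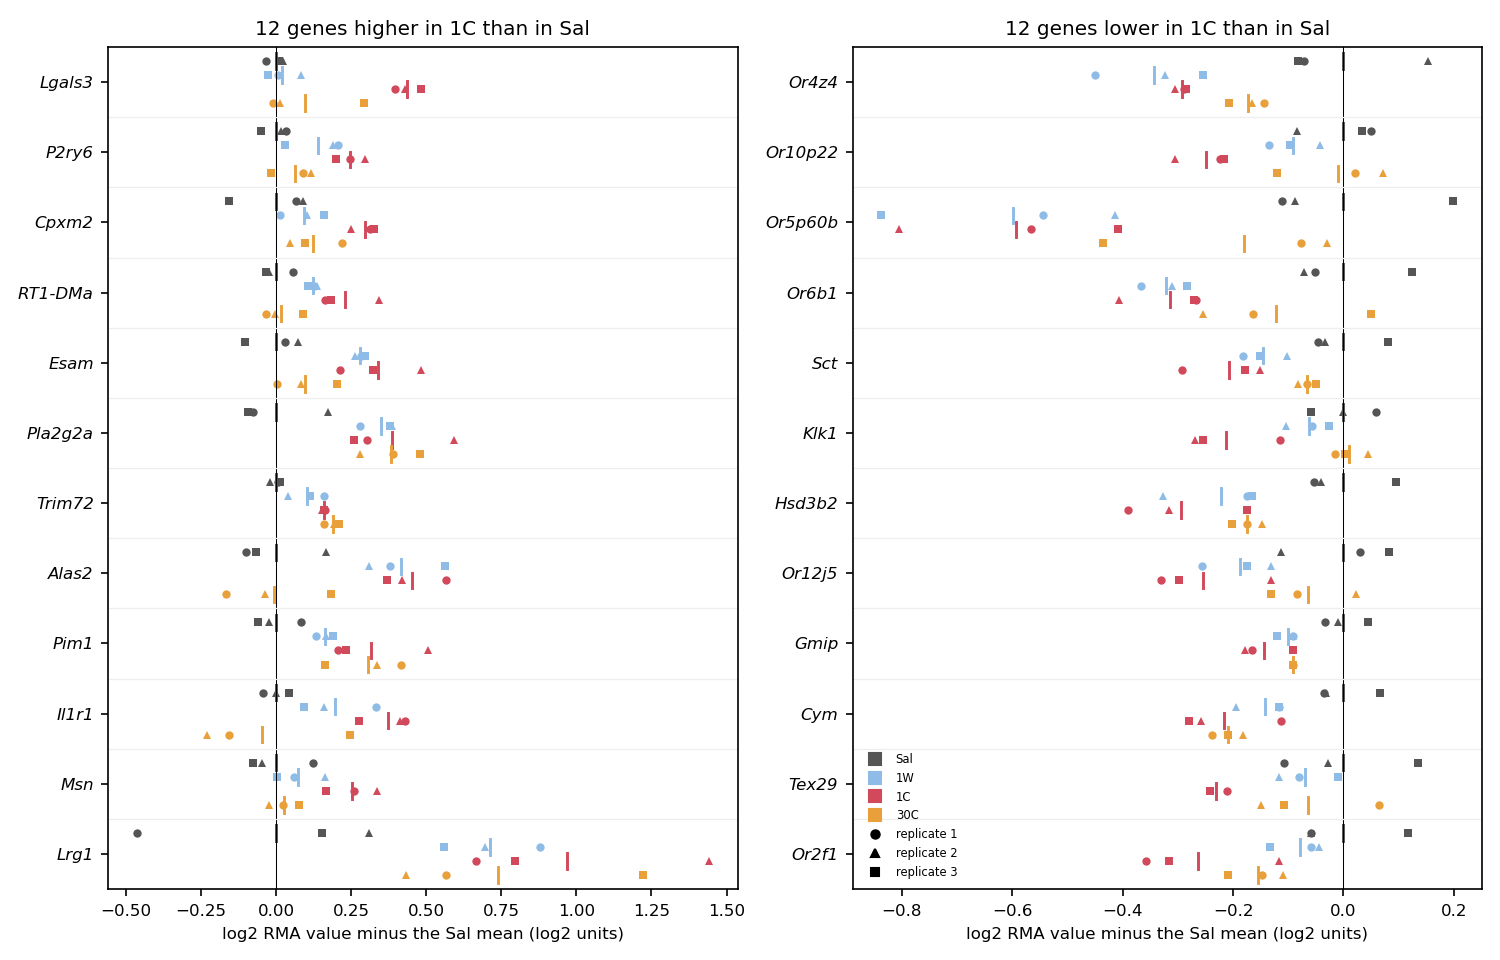
Values of the 24 genes with the smallest p-values whose 1C and Sal arrays did not overlap, 12 higher and 12 lower in 1C. The x axis is the RMA value minus the Sal mean in log2 units, marker shapes are the 3 replicates, colours the groups and vertical ticks the group means. Lgals3 in 1C lies apart from Sal and 1W, while Esam, Pla2g2a, Alas2, Or4z4 and Or5p60b take similar values in 1C and 1W.

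The genes wholly lower in 1C were of another kind. Of the 12 with the smallest p-values, 6 encode olfactory receptors, the odour-sensing receptors of the nasal epithelium. Or5p60b read 6.52, 6.28 and 6.67 in 1C and 6.97, 6.99 and 7.28 in Sal, a difference of -0.59 (SE 0.14). Or4z4 read 6.02, 6.00 and 6.02 against 6.24, 6.46 and 6.23, a difference of -0.29 (SE 0.06), and the difference of 1W from Sal was -0.34. Or6b1 (-0.32), Or2f1 (-0.26), Or10p22 (-0.25) and Or12j5 (-0.25) were the others. The remaining genes included Hsd3b2, a steroid-synthesising enzyme (-0.29), Tex29, a testis-expressed gene (-0.23), Cym, the milk-clotting protease chymosin (-0.22), Sct, the secretin precursor (-0.21), and Klk1, a kallikrein protease (-0.21). The last of the 12 was Gmip, whose difference was -0.13 without 1C replicate 2. Sct read 6.47, 6.61 and 6.59 in 1C and 6.72, 6.73 and 6.85 in Sal.

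Lower genes were concentrated at dim levels. Of the 157 genes lower at an unadjusted p under 0.05, 102 were among the 2356 dimmest of the genes tested, compared with 62 of the 247 higher genes. Among the higher genes, Lgals3 and Trim72 were dim as well. All their readings in 1C and Sal lay below 6.72, the highest mean level among those 2356. A list of olfactory, vomeronasal and trace amine receptor genes was drawn up after these values were seen. It held 239 genes tested with a median level of 6.09, against 8.18 over all genes, and 210 of the 239 were among those 2356. The median difference of these receptor genes between 1C and Sal was -0.13, 210 differences were negative, and 51 genes lay wholly below Sal (21.3% against 3.21% of all genes) and 0 wholly above. Over all 2356 dimmest genes, 5.94% lay wholly below Sal and 3.61% wholly above, with a median of -0.005. The receptor genes made up 56 of the 157 lower genes. The list score, the mean over genes of the deviation from each gene's mean over the 15 arrays, was 0.07, 0.02 and 0.18 in Sal and -0.03, -0.09 and 0.00 in 1C. The groups did not overlap, with Sal replicate 3 the highest. Without that array the median was -0.07 and 29 of the receptor genes were lower at an unadjusted p under 0.05, and without 1C replicate 2 the number was 31. The 25th percentile of all probe sets, a mark of the dim end of an array, was 5.49 to 5.51 in 1C and 5.51 to 5.57 in Sal, and again highest on Sal replicate 3. Its part in the receptor values was not tested. In 1W the median difference from Sal was -0.16, and 80 of these genes lay wholly below (3.25% of all genes).

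**Figure D2:**
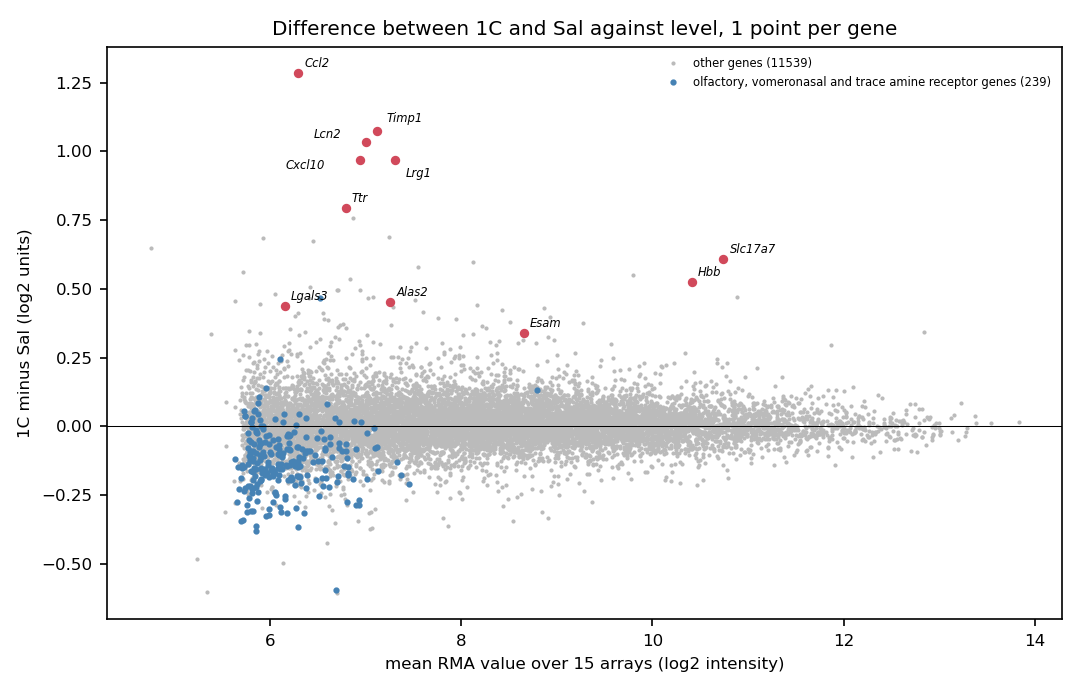
Difference between 1C and Sal in log2 units (y axis) against the mean RMA value over 15 arrays (x axis), 1 point per gene tested. The 239 olfactory, vomeronasal and trace amine receptor genes (blue) sit at the dim end with a median of -0.13, and the named genes (red) include Lgals3, Lrg1 and those high on single arrays, such as Ccl2.

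Immediate early genes were near the background in the number of members clear of Sal, and their median turned on single arrays. Of 45 tested, 32 had a positive difference (71.1%, against 54.5% of all genes), the median was 0.05, and 2 lay wholly above Sal (4.44% against 3.97%). Those were Klf2, a transcription factor of endothelium and activated cells (0.19, SE 0.06), and Sik1, an activity-induced kinase (0.15, SE 0.08). Klf2 read 7.28, 7.34 and 7.25 in 1C and 7.16, 7.13 and 7.02 in Sal. Without Sal replicate 1, the array low in Slc17a7, the list's median was -0.02 and 16 of 45 differences were positive, and without 1C replicate 2 the median was 0.00. It was larger without Sal replicate 3, at 0.15 with 40 of 45 positive and 9 wholly above (20.0% against 5.79% of all genes), and without 1C replicate 1, at 0.13 with 38 of 45 positive.

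The best-known members of the list overlapped between the groups. Fos read 7.32, 7.81 and 7.60 in 1C and 7.40, 7.43 and 7.73 in Sal, a difference of 0.05 (SE 0.15). Arc, whose product acts at activated synapses, read 9.17, 9.63 and 9.77 against 8.92, 9.63 and 10.00 (0.01, SE 0.26). Npas4, a transcription factor induced by calcium entry, read 8.30, 8.87 and 9.63 against 8.57, 9.04 and 9.30 (-0.04, SE 0.37). The spread within either group was larger than the difference for all 3 genes. Among other activity-induced transcription factors, the AP-1 subunits Junb (0.06) and Fosl2 (0.22, SE 0.11), the zinc finger factors Egr1 (0.05) and Egr2 (0.13) and the nuclear receptors Nr4a1 (-0.05) and Nr4a3 (0.19) also overlapped. So did Bdnf, a neurotrophin (-0.09), Homer1, a postsynaptic scaffold (0.09), and Nfil3, a repressor of clock output (-0.10). Fosb is not among the genes tested.

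Set against 30C, which had the same test after 30 days, the list was lower in 1C: 20 of the 45 genes lay wholly below 30C (3.82% of all genes did) and the median was -0.24. Its score was 0.44, 0.19 and 0.12 in 30C and -0.14, 0.09 and 0.02 in 1C. Replicate 1 of 30C, the highest, also had the highest cortical marker score (0.71, against -0.03 and -0.47 on the other 30C arrays), whose part in these values was not tested. Without it the median was -0.15 and 21 of the 45 lay wholly below (46.7% against 8.76% of all genes). With all 3 arrays of 30C, Nfil3 read 7.36, 7.59 and 7.38 in 1C against a 30C mean of 7.96, a difference of -0.51. Nr4a1 differed by -0.78, the lowest value on the list, and Egr2 by -0.53. Without replicate 1 of 30C the lowest value on the list was -0.68. No gene passed between 1C and 30C (0 of 11778 by limma with Benjamini-Hochberg adjustment, 646 at an unadjusted p under 0.05). Against 1W, which had no test, 35 of the 45 were positive (47.1% of all genes), the median was 0.09 and 4 lay wholly above (3.57% of all genes). Differences between 1C and 1W on the list ran from -0.32 to 0.54, with Nr4a3 at 0.54 and Fos at 0.39. Again no gene passed (0 of 11778 by limma, 474 at an unadjusted p under 0.05). The comparisons of 1C share its 3 arrays.

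Markers of medium spiny neurons had small positive differences. Of 35, 33 had positive differences (94.3%), with a median of 0.09, and 1 lay wholly above Sal (2.86% against 3.97%). That was Meis2, a homeobox factor of striatal neurons, at 11.84, 11.83 and 11.91 in 1C and 11.78, 11.78 and 11.69 in Sal (0.11, SE 0.12). In 27 of the 35 the highest of the 6 arrays was 1C replicate 3, as it was in 1872 of all 11778 genes. The list score was 0.00, 0.00 and 0.15 in 1C and -0.06, 0.08 and -0.14 in Sal, so that 2 of the 1C arrays fell within the range of Sal. The median was 0.04 both without 1C replicate 3 and without Sal replicate 3, the lowest Sal array, and 0.16 without Sal replicate 2. Drd1 and Drd2, the dopamine receptors, were at 0.09 (SE 0.17) and 0.14 (SE 0.15), and the peptide precursors Penk, Pdyn, Tac1 and Cartpt at 0.08, 0.15, 0.15 and 0.09. All 6 overlapped between the groups.

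Genes of dopamine and cAMP signalling had 28 of 34 positive differences and a median of 0.05, which was 0.02 without Sal replicate 3, 0.03 without 1C replicate 3 and 0.08 without Sal replicate 2. Only Cdk5, a kinase that phosphorylates DARPP-32, lay wholly below Sal (-0.06, SE 0.06) and only Pde4b, which breaks down cAMP, wholly above (0.07, SE 0.08). Ppp1r1b differed by 0.03 (SE 0.13). Ionotropic glutamate receptor genes were evenly split, with 13 of 27 positive and a median of -0.01. Gria1 and Gria2, the main AMPA receptor subunits, differed by 0.03 (SE 0.06) and 0.02 (SE 0.05), and Grin3b, a minor NMDA receptor subunit, was the only member wholly above Sal (0.10, SE 0.08). Among 29 postsynaptic scaffold and kinase genes, Grm5, a metabotropic glutamate receptor, and Nrxn3, a presynaptic adhesion protein, lay wholly above Sal (0.06 and 0.07) and Camk2g, a CaMKII subunit, wholly below (-0.16, SE 0.12). The differences of Grin3b, Grm5, Nrxn3 and Camk2g were all under 2 of their standard errors. In the dopamine, glutamate receptor and postsynaptic lists, 2.94%, 3.70% and 6.90% lay wholly above Sal (3.97% of all genes). Wholly below were 2.94%, 0% and 3.45% (3.21% of all genes).

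Glucocorticoid-responsive genes were the list with the largest share wholly above Sal. Of 27 tested, 25 had positive differences (92.6%), the median was 0.12, and 7 lay wholly above (25.9% against 3.97%) and 0 below. Map3k6, a stress kinase, read 6.28, 6.69 and 6.38 in 1C and 6.08, 6.13 and 6.15 in Sal (0.33, SE 0.09). Mt2A, a metal-binding metallothionein, read 12.87, 13.50 and 12.86 against 12.70, 12.78 and 12.73 (0.34, SE 0.13). Slc2a1, the glucose transporter of the blood-brain barrier, was higher by 0.18 (SE 0.07), and Errfi1, an inhibitor of EGF receptor signalling, by 0.12 (SE 0.05). In each of these 4 the highest array was 1C replicate 2, and it was the highest of the 6 arrays for 22 of the 27 genes (15.2% of all genes). Without 1C replicate 1 the median was 0.21. Without replicate 2 it was 0.05, and 7 genes lay wholly above (25.9% against 9.36% of all genes, since 2 arrays pass more easily). In that case 3 lay wholly below (11.1% against 7.03% of all genes). Fkbp5 and Sgk1, classic targets of the glucocorticoid receptor, overlapped between the groups (0.11, SE 0.09 and 0.12, SE 0.14), and differed by 0.02 each without 1C replicate 2. The list score was -0.09, 0.36 and -0.03 in 1C and -0.14, -0.08 and -0.07 in Sal, so that 1C replicate 1 fell within the range of Sal. In 30C the score was 0.10, 0.04 and 0.09. In 1W, 20 of the 27 differences from Sal were positive (57.7% of all genes) and 4 genes lay wholly above (14.8% against 4.84%). Nfkbia, Lcn2 and Slc2a1 are on other lists too.

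Most cytokine, chemokine and NF-kB genes were highest on 1C replicate 2, and some were high on that array alone. Ccl2, a chemokine that draws monocytes, read 6.22, 9.75 and 6.10 in 1C and 5.99, 6.04 and 6.18 in Sal. Cxcl10, a chemokine induced by interferon, read 6.53, 9.28 and 6.75 against 6.65, 6.68 and 6.32, and Timp1, an inhibitor of matrix metalloproteases, 7.29, 9.69 and 6.82 against 6.92, 6.68 and 6.97. On the other 1C arrays Ccl2 and Cxcl10 stayed within 0.1 log2 units of the nearest Sal array or inside the Sal range. Without replicate 2 the differences of Ccl2 and Cxcl10 were 0.09 each instead of 1.28 (SE 0.66) and 0.97 (SE 0.61). Timp1 differed by 1.07 (SE 0.49), and by 0.20 without replicate 2. Lcn2, an iron-binding acute-phase protein, read 6.67, 8.94 and 7.01 against 6.50, 6.54 and 6.48. In 1W, Lcn2 was 0.81 above the mean of the same Sal arrays. Between 1C and Sal its groups did not overlap, and its difference of 1.03 was 0.33 without 1C replicate 2. The 12 genes at least 1 unit above the other 5 arrays on this array also held Cxcl1 and Cxcl11, further chemokines, Csf2rb, a cytokine receptor chain, Ptges, which makes prostaglandin E, Lbp, which binds bacterial lipopolysaccharide, Slco2a1, a prostaglandin transporter, Tmem252 and Plac8.

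Over the 41 genes of the list, 35 differences were positive and the median was 0.12, and 30 were highest on 1C replicate 2 (73.2% against 15.2% of all genes). The list score was -0.06, 0.53 and -0.06 in 1C and -0.11, -0.09 and -0.08 in Sal. Without replicate 2 the median was 0.03. The members wholly above Sal were Cxcl16, a membrane-bound chemokine (7.49, 7.99 and 7.34 against 7.27, 7.24 and 7.00; 0.43, SE 0.13), Nfkbia, the inhibitor of NF-kB (0.36, SE 0.15), and Lcn2 (7.32% against 3.97%). Of 36 interferon and antigen presentation genes, 23 were highest on 1C replicate 2 (63.9% against 15.2% of all genes). Of these 36, Ifitm3, an interferon-induced membrane protein (0.43, SE 0.17), B2m, the light chain of class I molecules (0.10, SE 0.06), and Psmb9, an immunoproteasome subunit (0.20, SE 0.21), lay wholly above Sal (8.33% against 3.97% of all genes). The list's median was 0.04 with replicate 2 and -0.02 without it, and leaving out others gave 0.09 (1C replicate 1), 0.06 (1C replicate 3), 0.06 (Sal replicate 3) and 0.02 (Sal replicate 2).

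**Figure D3:**
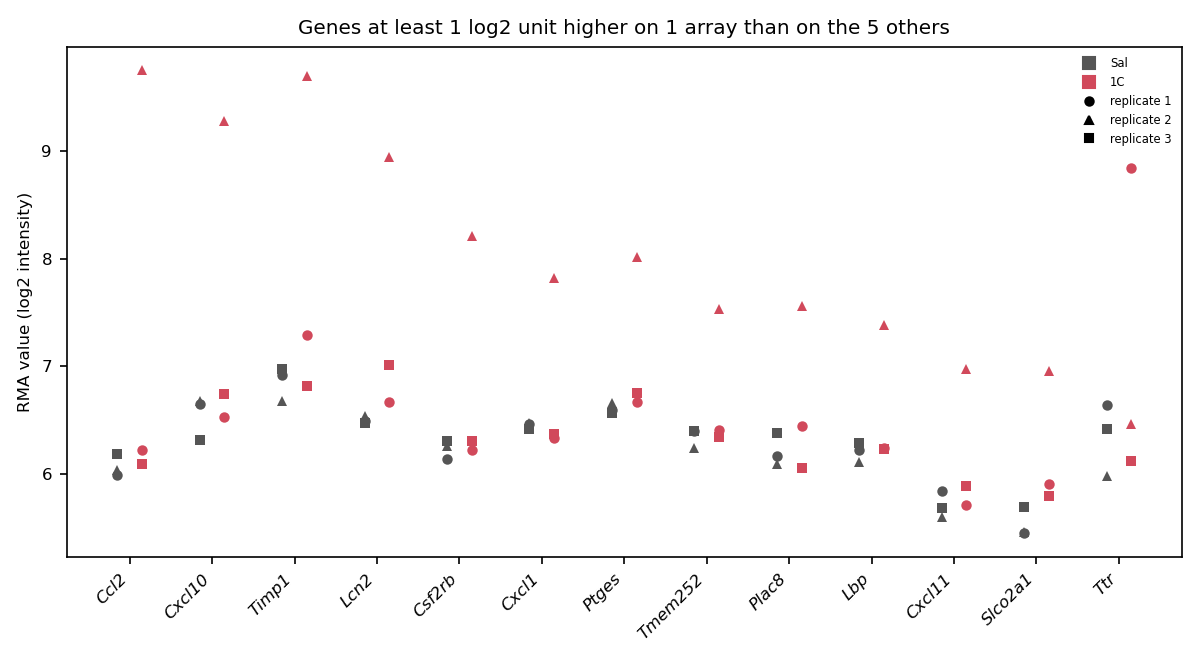
RMA values (log2 intensity) of the 13 genes that 1 array of the 6 holds at least 1 log2 unit above the others, grey for Sal and red for 1C, with marker shapes for the replicates. For 12 genes the high array is 1C replicate 2 (Ccl2 at 9.75) and for Ttr it is 1C replicate 1 (8.84).

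Microglia and macrophage markers mostly had positive differences. Of 35, 28 differences were positive (80%), the median was 0.09, and 8 lay wholly above Sal (22.9% against 3.97%). After Lgals3, these were led by Ctss, a lysosomal protease (11.05, 11.14 and 10.99 in 1C and 10.89, 10.89 and 10.86 in Sal; 0.18, SE 0.07), C1qc, a complement subunit (8.29, 8.99 and 8.41 against 8.25, 8.22 and 8.28; 0.31, SE 0.13), and Itgam, the integrin CD11b (0.29, SE 0.13). C1qc and Itgam were clearly highest on 1C replicate 2. Of 5 markers that are commonly used to define microglia, the receptors Cx3cr1 and P2ry12 differed by -0.02 each, while Csf1r (0.08), Tmem119 (0.11) and Aif1 (0.12) lay near or above the list's median, and all 5 overlapped between the groups. The highest array was 1C replicate 2 for 20 of the 35 (57.1% against 15.2% of all genes). Without that array the median was 0.05 and 10 lay wholly above (28.6% against 9.36%). In 1W, 33 of the 35 were positive (57.7% of all genes) with a median of 0.11.

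Vessel markers gave a similar count. Of 33 endothelial markers, 27 differences were positive (81.8% against 54.5% of all genes), the median was 0.07 and 7 lay wholly above Sal (21.2% against 3.97%). Beside Esam these included Adgrl4, an adhesion receptor (7.62, 7.72 and 7.72 in 1C and 7.41, 7.57 and 7.48 in Sal; 0.20, SE 0.06), Podxl, a sialomucin of the vessel lining (0.25, SE 0.10), and Slc2a1. Cldn5, the tight junction protein claudin-5, overlapped (7.84, 7.94 and 7.92 against 7.72, 7.86 and 7.86; 0.08, SE 0.09). The list score was 0.03, 0.00 and 0.06 in 1C and -0.03, 0.00 and -0.11 in Sal, so that the groups only just cleared each other at replicate 2 of both. Without 1C replicate 2, 14 lay wholly above (42.4% against 9.36% of all genes), and without 1C replicate 3, 8 did (24.2% against 8.47%) and the median was 0.04. In 1W, 16 of the 33 lay wholly above Sal (4.84% of all genes) with a median of 0.12.

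Among 17 pericyte and smooth muscle markers, Tpm2, a tropomyosin (0.20, SE 0.08), and Kcnj8 and Abcc9, both subunits of the pericyte potassium channel (0.16, SE 0.08 and 0.18, SE 0.11), lay wholly above Sal (17.6% against 3.97% of all genes). The list's median was 0.05, and 0.10 without 1C replicate 2 and 0.08 without Sal replicate 2, and it was 0.12 in 1W. Meningeal and fibroblast markers had 22 of 25 positive differences and a median of 0.12. Mgp, a matrix protein (0.23, SE 0.07), Fn1, fibronectin (9.04, 9.23 and 8.95 against 8.57, 8.75 and 8.91; 0.33, SE 0.11), and Bgn, the proteoglycan biglycan (0.15, SE 0.10), lay wholly above (12.0% against 3.97%). All 25 were highest on a 1C array, while 6144 of all 11778 genes were highest on a Sal array. For 13 of the 25 it was 1C replicate 1 (16.8% of all genes). Without that array the median was 0.06 with 17 of 25 positive, and without Sal replicate 3 it was 0.08. Without 1C replicate 3, 13 lay wholly above (52.0% against 8.47%). In 1W the median was 0.04.

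The haemoglobin genes Hbb and Hbb-b1 were higher on all 3 arrays of 1C. Hbb, a beta-globin gene, read 10.97, 10.64 and 10.55 in 1C and 10.19, 10.35 and 10.04 in Sal, a difference of 0.52 (SE 0.15). Hbb-b1, another beta-globin gene, read 10.30, 10.00 and 9.99 against 9.55, 9.63 and 9.46 (0.55, SE 0.18). Neither group overlapped the other, and 1C replicate 1 was the highest for both. The 2 genes are near-identical copies, so that their probe sets may read each other's transcripts. Their promoters are shown because both genes were higher in 1C without overlap and lie near each other on 1 chromosome. The 150 bases before each gene's start are given 5′ to 3′ from RefSeq for GRCr8, Hbb at chr1:167663722-167663871 and Hbb-b1 at chr1:167643521-167643670, both on the minus strand. Capitals mark, on either strand, the motif CACCC, the motif CCAAT and the TATA-like motif ATAAA, all known from globin promoters.
Hbb: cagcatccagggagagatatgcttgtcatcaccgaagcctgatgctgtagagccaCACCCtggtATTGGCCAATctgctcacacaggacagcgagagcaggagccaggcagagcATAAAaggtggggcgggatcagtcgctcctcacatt
Hbb-b1: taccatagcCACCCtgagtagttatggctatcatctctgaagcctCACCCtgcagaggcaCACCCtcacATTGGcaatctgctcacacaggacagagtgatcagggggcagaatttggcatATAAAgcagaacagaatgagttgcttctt
Both windows held all 3 motifs. CACCC begins 95 bases before the start of Hbb and 141, 105 and 90 bases before that of Hbb-b1. A CCAAT on the reverse strand begins 86 and 81 bases before the starts, followed in Hbb by one on the forward strand at 81, and the ATAAA begins at 36 in Hbb and 29 in Hbb-b1. Of 33469 RefSeq windows of the same length, 35.2% held the motif CACCC, 23.5% held the motif CCAAT and 25.7% held the motif ATAAA, counting both strands, so each match is common and is a description of the letters only.

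Alas2, the erythroid enzyme that starts haem synthesis, read 7.64, 7.49 and 7.44 in 1C and 6.97, 7.24 and 7.01 in Sal, a difference of 0.45 (SE 0.12) without overlap. Slc4a1, the anion exchanger of the red cell membrane, was higher by 0.27 (SE 0.10) but overlapped. Of 18 erythroid markers, 14 differences were positive and 3 lay wholly above Sal (16.7% against 3.97%), while the median was 0.04. Those 3 were Hbb, Hbb-b1 and Alas2, and no other haemoglobin gene on the list lay wholly above. The list score was 0.08, 0.05 and 0.01 in 1C and -0.09, -0.05 and -0.07 in Sal, without overlap. In 1W the differences from Sal were 0.45 for Hbb, 0.44 for Hbb-b1 and 0.42 for Alas2, and in 30C the means of Hbb and Alas2 were 10.32 and 7.07 against 10.19 and 7.07 in Sal.

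Choroid plexus and ependymal markers varied by array. Of 19, 18 differences were positive with a median of 0.17, and 0 lay wholly above Sal. Ttr, the thyroid hormone carrier made by the choroid plexus, read 8.84, 6.46 and 6.12 in 1C and 6.64, 5.99 and 6.42 in Sal, and only 1C replicate 1 lay clear. The list score was 0.37, 0.01 and 0.12 in 1C and 0.17, -0.15 and -0.17 in Sal, and without 1C replicate 1 the median was 0.11. Cortical projection neuron markers differed more within groups than between them, with scores of -0.31, 0.22 and -0.03 in 1C and -0.83, 0.26 and 0.50 in Sal, and 5 of 18 positive differences. Slc17a7 differed by 0.61 (SE 1.03), and by -0.93 without Sal replicate 1.

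Oligodendrocyte markers leaned the other way. Of 32, 31 had negative differences, the median was -0.07, and 2 lay wholly below Sal (6.25% against 3.21%). Gjb1, a gap junction protein of myelin, read 7.25, 7.18 and 7.18 in 1C and 7.45, 7.37 and 7.37 in Sal (-0.19, SE 0.07), and Cnp, a myelin enzyme, 11.71, 11.68 and 11.70 against 11.88, 11.77 and 11.71 (-0.09, SE 0.06), where the nearest arrays of the 2 groups were less than 0.01 apart. Mbp, myelin basic protein, overlapped (-0.04, SE 0.06). The list score was -0.04, -0.08 and -0.08 in 1C and 0.14, -0.03 and -0.07 in Sal. The median difference was -0.02 without Sal replicate 1 and -0.12 without Sal replicate 3. In 1W the direction against Sal was opposite, with 31 of 32 positive and a median of 0.11, from the same 3 Sal arrays. Between 1C and 1W all 32 were lower in 1C with a median of -0.18, and 9 lay wholly below (28.1% against 4.3% of all genes), with Gjb1 at -0.30. None of them passed the adjusted threshold there.

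Other glial lists showed smaller differences. Astrocyte markers had 25 of 27 positive differences with a median of 0.06 and 0 members clear of Sal. The list rested on Sal replicate 3, its lowest array: without it the median was 0.00 and 15 of 27 were positive. Without Sal replicate 1 the median was 0.11 and 9 lay wholly above (33.3% against 12.2% of all genes). Gfap, the astrocyte filament protein, read 9.85, 9.79 and 9.33 in 1C and 9.43, 9.42 and 9.40 in Sal, with 2 arrays above Sal and 1 below. Of 17 oligodendrocyte precursor markers, 12 were positive and Matn4, a matrix protein, lay wholly above Sal (6.05, 6.01 and 6.01 against 5.85, 5.92 and 5.88; 0.14, SE 0.04). That was 5.88% of the list, against 3.97% of all genes.

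**Figure D4:**
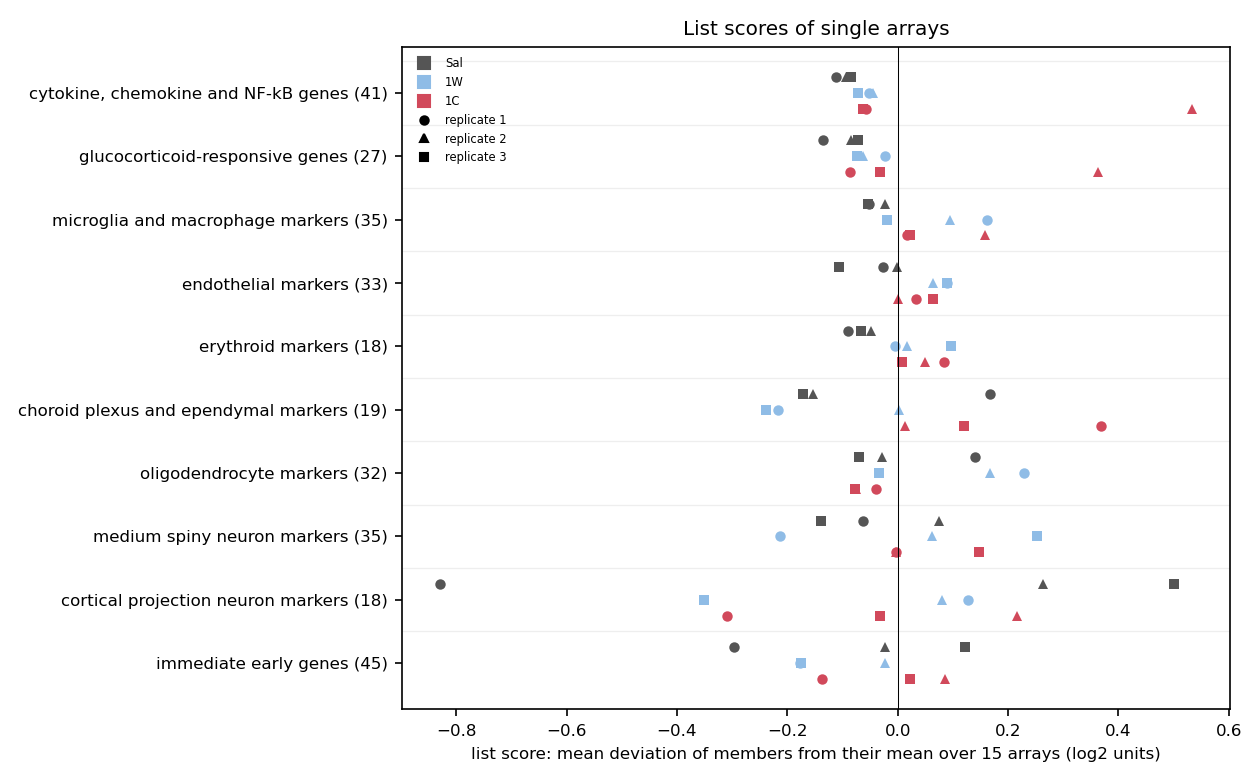
List scores of single arrays: for each of 10 gene lists (number of genes tested in brackets), the mean deviation of the members from their means over the 15 arrays, in log2 units, for Sal, 1W and 1C. The score of cytokine genes is 0.53 on 1C replicate 2 and below 0 on the other arrays shown, that of cortical markers is -0.83 on Sal replicate 1, and erythroid scores of 1C and Sal do not overlap.

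Heat shock and chaperone genes had 27 of 31 positive differences (87.1% against 54.5% of all genes) with a median of 0.05 and 0 clear of Sal. Without Sal replicate 1, 13 lay wholly above (41.9% against 12.2%) and the median was 0.09, and without 1C replicate 3, 11 did (35.5% against 8.47%). Without 1C replicate 2 the median was 0.03 with 0 wholly above. Hspb1, a small heat shock protein, read 8.32, 8.63 and 8.12 in 1C and 8.38, 7.75 and 8.03 in Sal. Among 17 core clock and output genes, Csnk1e, a kinase of the clock, lay wholly below (-0.05, SE 0.04). GABA receptor and transport genes (20) and interneuron markers (19) had 0 members clear of Sal in either direction. Of 37 neuropeptide genes, Nxph1, a neurexin ligand, lay wholly below (-0.11, SE 0.08), as did Hcn2, a pacemaker channel, of 42 potassium channel genes (-0.08, SE 0.06), and Cntf, a glial trophic factor, of 35 neurotrophin genes (-0.14, SE 0.12). In the clock, neuropeptide, potassium channel and neurotrophin lists, 5.88%, 2.70%, 2.38% and 2.86% lay wholly below Sal (3.21% of all genes).

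Wnt pathway genes were split, with 3 of 38 wholly above Sal and 3 wholly below (7.89% each, against 3.97% and 3.21% of all genes). Sfrp1, a secreted Wnt inhibitor, read 7.70, 7.76 and 7.71 in 1C and 7.52, 7.25 and 7.29 in Sal (0.37, SE 0.16), while the difference of 1W from Sal was -0.26 and 1C was 0.63 above 1W. Fzd4, a Wnt receptor, was higher by 0.11 (SE 0.06), and Wnt16, a ligand, and Sfrp4, a further secreted inhibitor, lay wholly below Sal (-0.15, SE 0.06 and -0.24, SE 0.10). Among 23 cell cycle genes, Mcm5, a replication helicase subunit, read 5.90, 5.92 and 6.01 in 1C and 6.14, 6.23 and 6.15 in Sal (-0.23, SE 0.07), and Ccnb2, a mitotic cyclin, and E2f1, a factor of S phase entry, lay wholly above (0.07 and 0.08). Aurkb, a mitotic kinase, was 0.51 higher (SE 0.16) but overlapped. Of the cell cycle list, 8.70% lay wholly above Sal and 4.35% wholly below (3.97% and 3.21% of all genes).

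Genes of cell housekeeping were nearly flat. Oxidative phosphorylation genes had 20 of 43 positive differences and a median of 0.00, with Ndufa6, a complex I subunit, wholly above Sal (0.13, SE 0.05) and Cox6a1 and Cox6c, complex IV subunits, wholly below (-0.08 and -0.07). Ribosomal protein genes had 33 of 50 positive and a median of 0.01, with Rpl23 (0.20, SE 0.08) and Rpl22 (0.09) wholly above and Rpl4 (-0.07) wholly below. Of 33 DNA methylation and chromatin enzymes, Mbd1, a methyl-CpG binding protein, lay wholly above (0.09, SE 0.05), and of 18 other leukocyte and platelet markers, Csf3r, a neutrophil growth factor receptor, did (7.16, 7.50 and 7.17 against 7.13, 7.06 and 7.15). In the oxidative phosphorylation, ribosomal, chromatin and leukocyte lists, 2.33%, 4%, 3.03% and 5.56% lay wholly above Sal (3.97% of all genes). Wholly below were 4.65%, 2%, 0% and 0% (3.21% of all genes).

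**Figure D5:**
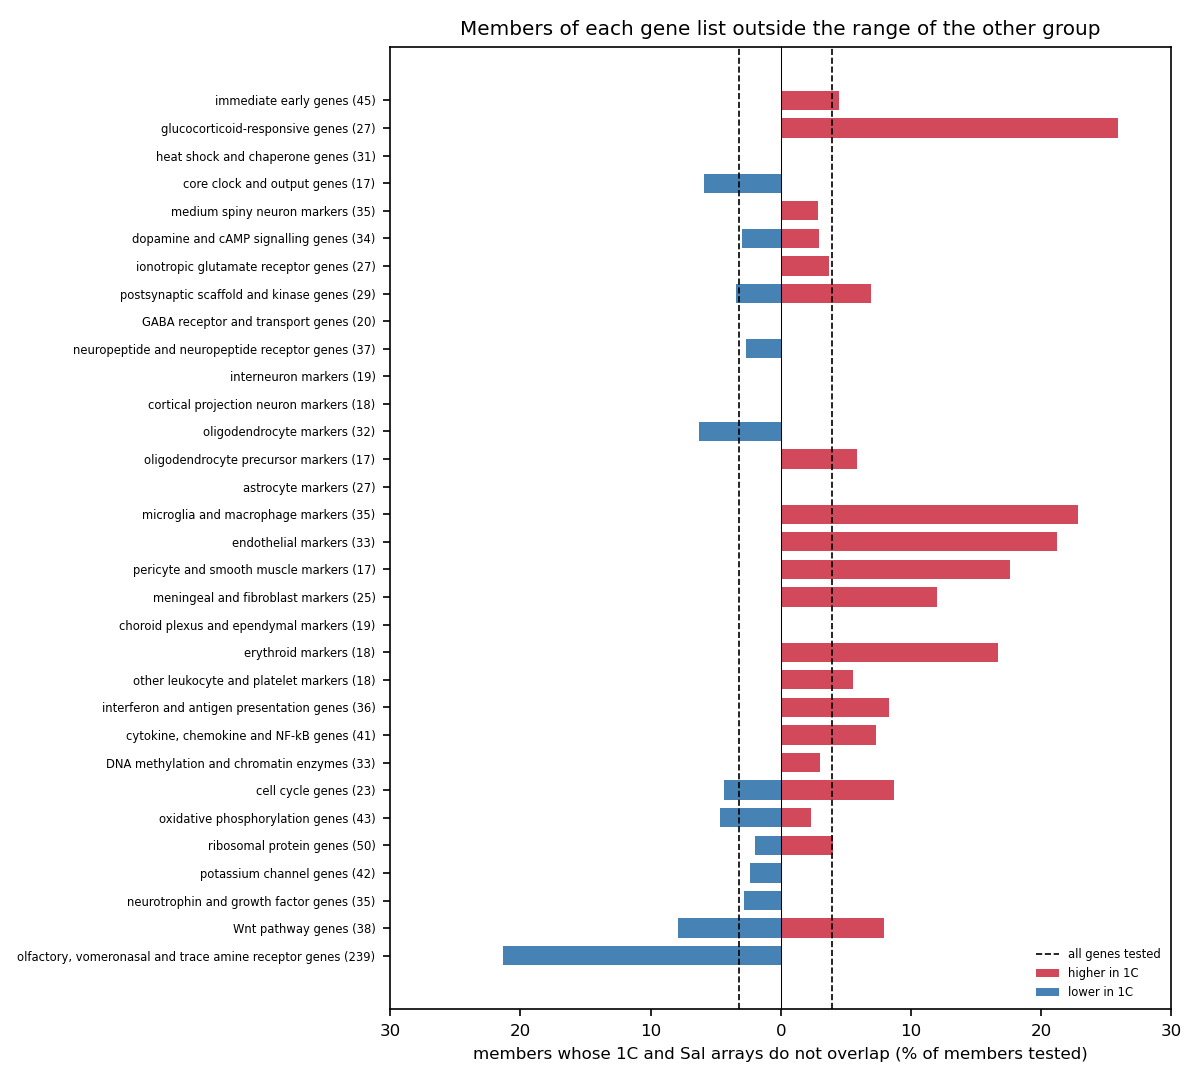
Share of each gene list, in % of members tested, whose 1C arrays lie wholly above (red, to the right) or wholly below (blue, to the left) the Sal arrays. Dashed lines mark 3.97% and 3.21%, the shares over all 11778 genes. Glucocorticoid-responsive (25.9%), microglia (22.9%) and endothelial (21.2%) genes reach furthest to the right and the receptor genes chosen after their values were seen (21.3%) furthest to the left.

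Of the 22 genes with a difference of 0.5 or more, named here after their values were seen, 9 of the 19 higher ones were highest on 1C replicate 2. One more of these was Cp, the copper carrier ceruloplasmin, at 7.33, 7.91 and 6.82 in 1C and 6.84, 6.52 and 6.45 in Sal (0.76, SE 0.25). S100a11, a calcium-binding protein, read 8.16, 7.92 and 7.68 against 7.78, 6.97 and 7.28 (0.58, SE 0.22). Of the 3 lower genes, Sult1c2, a sulfotransferase, did not overlap (6.69, 6.04 and 6.76 against 7.11, 6.97 and 7.22; -0.61, SE 0.18), nor did Or5p60b, and Kng2l1 did (-0.60, SE 0.38).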

How the data were processed

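The deposited table gives log2 intensities for 28826 probe sets. Per the submitters' processing notes the authors used RMA (version not given in the sources used here), a method that corrects background, brings arrays to a common distribution by quantile normalization and summarises probes. Per the labels, the RNA was labelled with a kit meant for 3' arrays, although the probe sets belong to a whole-transcript design. A platform table named 15209 probe sets with 1 symbol, 306 had several and 13311 were unnamed here. Entrez IDs of 15178 matched RefSeq (GRCr8). Each of 14497 genes took its probe set of highest mean, kept where at least 3 arrays had it above their 30th percentile. Limma 3.58.1 in R 4.3.3 fitted 1 model of the 5 groups over 15 arrays (residual df 10, prior df 3.44), with two-sided p-values adjusted by Benjamini-Hochberg within each comparison. It was tested on simulated data.

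The members, the gene lists and the rule for named genes were chosen with earlier results of these data known. The rule took, in each direction, the 12 smallest p-values among genes whose groups did not overlap, up to 4 such members per list and a fixed set of genes. Others are said to be chosen after their values were seen, as are Timp1, Cxcl1, Csf2rb, Ptges, Lbp, Cxcl11, Slco2a1, Tmem252, Plac8, Neurod6, Cck, Slc4a1 and Aurkb and the defining microglia receptors. Alternatives covered filters, probe sets, normalization, variance model, array weights, the arrays fitted, a cortical covariate, the replicate block, the threshold and leaving out each array. With 3 arrays per group, their number limits the precision.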

Additional observations from a re-analysis of the deposited data

Results flagged for a closer look

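Oligodendrocyte precursor markers lay on opposite sides of the Sal mean in the groups that had the extinction test. The list score minus its Sal mean averaged 0.0411 in 1C, with every array above that mean, and -0.0414 in 30C, with every array below it. The Sal arrays themselves spanned -0.11 to 0.08, a range that held all 3 arrays of 30C and 2 of the 3 of 1C. Replicates 2 and 3 of 1C were less than 0.01 above the Sal mean, and replicate 1 was at 0.10. This difference was not tested.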

How the results depend on the processing

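No gene passed between 1C and Sal, or between 1W and Sal, under any alternative that kept all 15 arrays or the 6 of the comparison. Leaving out 1 array at a time gave 0 to 1 genes between 1C and Sal, the 1 being Lgals3 without 30C replicate 3 (adjusted p = 0.019 by limma), 0 to 1 between 1C and 1W and 0 to 2 between 1C and 30C. Between 1C and 30C array weights gave 2 genes and the cortical covariate 1. Genes lower at an unadjusted p under 0.05 numbered 378 without the filter, 62 with the stricter filter and 331 with array weights, which gave 379 higher genes. Genes wholly below Sal numbered 655 without the filter and 233 with the stricter one. Filters change the number of genes tested, and the cause of the other shifts was not tested. Over single arrays left out, higher genes at that p ranged from 146 (without Sal replicate 3) to 527 (without Sal replicate 1) and lower genes from 149 to 246. With a 1C or Sal array left out, genes wholly above ranged from 682 to 1439 and wholly below from 677 to 1178, microglia markers wholly above from 8 to 14, endothelial from 7 to 14 and glucocorticoid-responsive genes from 7 to 10. A group of 2 arrays passes more easily, so these numbers cannot fall below those of the full 6 arrays.

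Of 3369 values of named genes under alternatives, 36 had the sign turned. With array weights these were Arc (-0.062), Cartpt (-0.016), Cck (-0.19), Neurod6 (-0.16), Ppp1r1b (-0.019) and Slc17a7 (-0.065), and with the mean of its probe sets Ccnb2 (-0.28). Leaving out single arrays turned the sign within ranges of -0.29 to 0.25 for Arc, -0.93 to 1.5 for Slc17a7, -0.040 to 0.081 for Ppp1r1b, -0.82 to 1.09 for Neurod6, -0.76 to 0.86 for Cck, -0.061 to 0.18 for Fos, -0.036 to 0.21 for Junb, -0.12 to 0.19 for Egr1, -0.041 to 0.33 for Egr2, -0.059 to 0.47 for Nr4a3, -0.0029 to 0.15 for Homer1, -0.015 to 0.045 for Gria2, -0.062 to 0.026 for Cx3cr1, -0.39 to 0.28 for Npas4, -0.31 to 0.20 for Nr4a1, -0.011 to 0.17 for Drd1, -0.055 to 1.30 for Ttr and -0.10 to 0.64 for Cxcl1. Apart from Ccnb2, the groups overlapped for each of these genes.

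Replicate numbers were not shown to pair 1C with Sal: deviations of same-numbered arrays correlated at 0.50, 0.11 and -0.02, and 2 of the 6 arrays correlated best with their own number. With the replicate block 0 genes passed, and an unadjusted p under 0.05 was reached by 244 genes higher in 1C and 162 lower.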

Other observations

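A further group of genes, chosen after their values were seen, followed single arrays rather than the groups. Cfap126 and Saxo4, associated with motile cilia, and Capsl and Lrrc34 were high on Sal replicate 1, 1C replicate 1 and 1C replicate 3 and low on Sal replicates 2 and 3. Cfap126 read 8.91, 8.41 and 9.03 in 1C and 9.08, 7.69 and 7.79 in Sal, and Saxo4 read 8.25, 7.38 and 8.20 against 8.53, 6.63 and 6.62. Capsl read 5.92, 4.92 and 5.97 against 6.50, 3.98 and 4.37, and Lrrc34 read 6.60, 5.80 and 6.79 against 6.77, 5.40 and 5.34. Their differences of 0.56 to 0.69 had standard errors of 0.41 to 0.62. The group means in 1W were 7.66 for Cfap126 and 6.82 for Saxo4.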
